A study of Mus musculus with 8 samples.

Results

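A member here was a pair of different microarray probes that read opposite strands: the 60-base sequence of one shared 30 or more consecutive bases with the reverse complement of the other. Both probes had to be well above background, by the scanner's own flag, on 4 or more of 8 arrays. Of the 145548 non-control probes on the array, 64080 passed that filter, and 271 of these formed 295 opposite-strand pairs. As a comparison, 2592 kept probes formed 1930 pairs whose overlap lay on the same strand.

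Total RNA came from hind-limb skin of male mice aged 8 weeks, and 4 arrays carried Irf1 knockout and 4 wild-type samples. The strain is labelled C57B L/6, and the knockout lacks interferon regulatory factor 1 in the whole animal. Mice of both genotypes had been anaesthetised with chloral hydrate and their hind limb had received 35 Gy of electron-beam irradiation before skin was taken from the exposed area. Skin without irradiation was not analysed here, and the labels do not state how long after exposure it was collected. Each genotype had a slide and a scan of its own, and the effects of slide and genotype cannot be told apart. The labels do not say that the samples were separate animals, and p-values measure only the spread between these samples. In whole skin, fewer cells of a type and less RNA per cell cannot be told apart either. Between 58870 and 68357 probes were well above background per array, 0 spots were saturated, and the weakest such signals were 9.82 to 12.4 scanner units. The files pair no probe with a gene, no probe could be assigned to Irf1, and so neither the genotype labels nor skin markers were checked.

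Both strands of a genomic site can be transcribed, giving a sense RNA and an antisense RNA that pair with each other base for base. Antisense transcripts are a large class of long non-coding RNA, and some act on the gene they overlap. On these arrays the labelled cRNA is complementary to the RNA, so a probe has the sequence of the RNA it reads, and an opposite-strand pair asks how much signal each strand gave at one place. A level below is the log2 processed signal of a probe minus the 75th percentile of its array, so 0 is that percentile and a difference of 1 is a doubling of signal. Levels of different probes reflect their own binding as well as the amount of RNA; the same-strand pairs show how far probes on a shared stretch of one strand lay apart.

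The label of the set, pairs at one locus, held for only part of it. In 174 of the 295 pairs the shared stretch was a simple repeat (it matched itself at a shift of at most 6 bases over 80% or more of its length). Of these, 172 pairs were combinations of only 40 probes, 29 carrying a run of TG and 11 carrying a run of CA. TG and CA runs are the complementary strands of the commonest dinucleotide repeat of the mouse genome, and they occur at very many places. Of these 40 probes, 35 also shared 30 or more bases with a RefSeq promoter (GRCm38.p6), of 1 to 4 genes each. These pairs compare strands of a repeat, not of a locus. The other 121 pairs fell into 106 groups linked by shared probes, 97 of them single pairs, and at most these can stand for a site. Even there, 13 of 227 probes matched promoters of several genes, and some probes rich in TG fell short of the repeat rule. In some pairs the match broke off inside both probes, as in CUST_OEV3_005983 and CUST_OEV3_022006, so the flanking bases differed. Such pairs are not shown to read a single site, and how many of the 121 they are was not counted.

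The brightest and the dimmest probe of each repeat strand are shown to display where in the probe the run lies, which the levels followed; capitals mark the run.
A_55_P2066792: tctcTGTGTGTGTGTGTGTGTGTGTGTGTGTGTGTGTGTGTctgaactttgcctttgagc
A_55_P2056280: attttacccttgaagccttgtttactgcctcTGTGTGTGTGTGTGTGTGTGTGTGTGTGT
A_55_P1988168: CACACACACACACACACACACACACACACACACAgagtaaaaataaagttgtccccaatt
A_55_P2066553: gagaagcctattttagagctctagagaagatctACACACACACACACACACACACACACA

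Pairs whose 60 bases were complementary over the whole probe give the closest comparison of strands, since both probes cover exactly the same bases. There were 12 such pairs at 9 sites, 4 of the pairs being copies of 1 probe sequence set against the same partner. That sequence (CUST_OEV3_055077) and CUST_OEV3_066447 are rich in TG, and whether their gaps belong to a single site was not tested. The brighter strand of 6 of these sites is shown; the dimmer probe is its exact reverse complement.
CUST_OEV3_055077: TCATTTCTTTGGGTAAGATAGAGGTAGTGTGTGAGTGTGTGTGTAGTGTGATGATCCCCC
CUST_OEV3_066447: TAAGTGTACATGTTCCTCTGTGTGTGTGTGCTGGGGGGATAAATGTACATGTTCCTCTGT
A_52_P24428: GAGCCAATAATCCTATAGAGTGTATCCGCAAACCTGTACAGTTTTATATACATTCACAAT
A_51_P175871: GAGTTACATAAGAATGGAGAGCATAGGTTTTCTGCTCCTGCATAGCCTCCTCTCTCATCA
CUST_OEV3_066576: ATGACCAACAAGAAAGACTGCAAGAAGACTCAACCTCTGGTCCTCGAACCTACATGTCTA
A_51_P153805: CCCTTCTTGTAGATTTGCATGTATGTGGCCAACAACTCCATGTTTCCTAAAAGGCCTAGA

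Further pairs on which the results turn are given with the bases they share in capitals, each brighter probe first. The first pair holds the member called different between genotypes, the second has the widest gap of all members, the third has a bright strand and a well-detected partner, the fourth was low in knockout skin on both strands, the fifth had both strands high, and the sixth had both strands close in level.
A_55_P1972590: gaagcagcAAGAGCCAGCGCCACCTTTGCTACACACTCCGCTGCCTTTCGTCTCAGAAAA
A_55_P2075515: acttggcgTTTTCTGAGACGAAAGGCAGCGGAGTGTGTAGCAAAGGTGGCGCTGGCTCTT
CUST_OEV3_066769: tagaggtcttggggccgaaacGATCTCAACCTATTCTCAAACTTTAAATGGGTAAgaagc
CUST_OEV3_065874: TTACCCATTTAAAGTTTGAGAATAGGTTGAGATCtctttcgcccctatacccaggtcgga
A_55_P2736734: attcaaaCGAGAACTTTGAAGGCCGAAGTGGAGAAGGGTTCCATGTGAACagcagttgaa
CUST_OEV3_091348: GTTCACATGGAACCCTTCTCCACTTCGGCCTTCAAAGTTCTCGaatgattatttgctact
A_55_P2137121: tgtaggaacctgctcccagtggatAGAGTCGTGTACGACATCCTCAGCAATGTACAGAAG
A_55_P2100194: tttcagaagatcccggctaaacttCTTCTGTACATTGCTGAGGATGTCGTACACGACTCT
A_55_P2007699: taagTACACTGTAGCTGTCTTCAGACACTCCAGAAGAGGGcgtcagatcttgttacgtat
A_55_P1956063: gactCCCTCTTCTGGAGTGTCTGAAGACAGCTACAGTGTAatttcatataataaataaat
CUST_OEV3_042336: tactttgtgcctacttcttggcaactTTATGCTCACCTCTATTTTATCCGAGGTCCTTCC
A_52_P135873: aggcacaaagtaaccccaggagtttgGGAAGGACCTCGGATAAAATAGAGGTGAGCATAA

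Detection was asked first, since a strand can be below background. The array held 477 opposite-strand pairs in all: both probes were kept in 295, 1 probe in 87 and neither in 95. Among the 299 that were not simple repeats, 204 had at least 1 kept probe, and in 121 of these (59.3%) both were kept. Same-strand pairs that were neither repeats nor copies of one sequence had both probes kept in 1018 of 1551 such cases (65.6%). Of the 87 pairs with 1 kept probe, the weaker strand was well above background on 0 arrays in 71, while the stronger strand was so on all 8 arrays in 74. Membership therefore leaves out the pairs with the most unequal detection. At the edge of the rule, 5 pairs had the weaker strand on 3 arrays, with level gaps of 2.19 to 4.13 on the log2 scale, and 11 member pairs had it on 4 arrays, with gaps of 0.25 to 6.71. The 6 non-repeat pairs that shared exactly 30 bases had gaps of 0.56 to 6.71.

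Within the members, 244 of 271 probes were well above background on all 8 arrays, and 0 were below it on every array of a genotype. In 25 pairs the dimmer strand was missed on at least 1 array; it was seen on more knockout arrays in 13, on more wild-type arrays in 8 and on equal numbers in 4. The dimmer strand of A_55_P2137121, probe A_55_P2100194, was well above background on 1 knockout array and 4 wild-type arrays. The most unequal detection among members, 8 arrays against 4, was shared by several pairs, of which those with the widest gaps were A_55_P2538668 and CUST_OEV3_060584, both against CUST_OEV3_045006, and CUST_OEV3_009318 against CUST_OEV3_091615. Their mean log2 level gaps were 6.71, 6.60 and 6.18, but on 4 arrays the dimmer value was not well above background, so these are rough sizes and give no exact order. In each of these the brighter strand stayed above 1 on every array and the dimmer strand below -2. A_55_P2538668 and CUST_OEV3_060584 have nearly the same sequence and share their partner, so they count as 1 measurement. Their match to CUST_OEV3_045006 broke off inside both probes, so a single site is not shown.

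The strands of a non-repeat pair were usually far apart in signal. Over the 121 non-repeat pairs the median gap between brighter and dimmer probe was 2.45 on the log2 scale, a 5.46-fold difference in signal, with quartiles of 1.22 and 3.79. Over all 295 pairs it was 5.33, a figure in which the 40 repeat probes count as 172 pairs. The gap exceeded 1 in 97 of the 121 (80.2%), and the same probe was brighter on all 8 arrays in 107. The 1018 same-strand pairs had a median gap of 0.47, and 273 (26.8%) exceeded 1. In 669 of these 1018 the same probe was brighter on all 8 arrays. The brighter probe was set by the mean over the same 8 arrays, which favours such counts. Array by array the opposite-strand median lay between 2.35 and 2.63 and the same-strand median between 0.48 and 0.53. All arrays carry the same probes, so these ranges do not show the spread between pairs. The gaps of single pairs did overlap: same-strand gaps reached 6.91 and opposite-strand gaps went down to 0.05. Copies of one probe sequence printed under different names differed by a median of 0.08 in 557 pairs, which gives the scale of the measurement itself. No p is given for these medians, because pairs share probes and arrays.

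Longer overlaps had gaps no smaller than this. With 50 or more shared bases the median gap was 2.96 in 43 opposite-strand pairs and 0.20 in 228 same-strand pairs. With 1 value per linked group the non-repeat median was 2.55 in 106 groups, against 0.45 in 740 same-strand groups. After normexp background correction, which lifts dim probes, the medians were 1.61 and 0.31. With both probes well above background on all 8 arrays they were 2.29 in 96 pairs and 0.45 in 860. The brighter probe had more G than its partner in 51 of the 121 pairs, fewer in 61 and the same number in 9. In the 24 pairs of a catalogue and a custom probe, the catalogue probe was brighter in 18.

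The exact complements ranged widely. CUST_OEV3_055077 read 5.29, 5.95, 4.77 and 4.78 on the knockout arrays and 6.27, 5.65, 5.93 and 4.88 on the wild-type arrays. Its complement, CUST_OEV3_055076, read -2.39, -2.46, -1.44 and -1.83, then -2.16, -2.57, -2.59 and -2.61. The strands were apart on every array, by a mean of 7.70 (207-fold), and the genotypes overlapped on both. The other 3 copies of the bright probe gave gaps of 7.72 to 7.78.

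CUST_OEV3_066447, whose bright strand also holds a short TG run, lay 5.55 above CUST_OEV3_001409, and A_52_P24428 lay 5.70 above A_55_P2549189. Smaller gaps were found for A_52_P219266 (3.32), A_55_P2136765 (3.17), CUST_OEV3_025428 (2.56) and CUST_OEV3_066576 (1.28), each over its complement. The closest exact complements were A_51_P153805 and A_55_P2071893. A_51_P153805 read 0.89, 0.93, 1.11 and 1.08 in knockout and 1.48, 1.37, 1.20 and 1.01 in wild-type skin. A_55_P2071893 read 0.40, 0.57, 1.1 and 0.21, then 0.62, 0.49, 0.07 and 0.84. Their mean gap of 0.60 was present on all 8 arrays but ranged from 0.01 to 1.13.

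Of the 227 non-repeat member probes, 4 matched the promoter of a single gene in RefSeq (a window of 300 bases around the start site, GRCm38.p6), and they form 2 pairs. The rest of the genome was not searched, so signal from related sequence elsewhere cannot be told apart from signal of these sites. A_51_P175871 and A_55_P2740911 are exact complements at chr5:138363570-138363629, upstream of Gm10874, which lies on the plus strand, and within the annotated span of the pseudogene Got2-ps1. The minus-strand probe A_51_P175871 read 1.90, 1.95, 1.78 and 1.99 in knockout and 1.74, 1.99, 1.86 and 2.41 in wild-type skin. The plus-strand probe A_55_P2740911 read -1.08, -1.01, -1.53 and -1.03, then -1.02, -0.66, -1.1 and -0.79. The probe for the strand opposite to Gm10874 was thus the brighter on every array, and the genotypes overlapped. The gap was 3.07 ± 0.17 in knockout and 2.89 ± 0.24 in wild-type skin (SD, n = 4 each).

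The second located pair lies upstream of Igflr1, which encodes a receptor-like membrane protein, and inside the annotated span of its neighbour U2af1l4, a splicing factor gene; both genes are on the plus strand. The plus-strand probe A_55_P2138090 (chr7:30565303-30565362) read 5.91, 5.52, 5.03 and 5.94 in knockout and 5.45, 5.32, 6.06 and 5.50 in wild-type skin. The minus-strand probe CUST_OEV3_054548 (chr7:30565285-30565344), which shares 42 bases with it, read -3.94, -4.12, -2.84 and -3.32, then -3.74, -3.30, -3.98 and -4.85. The probe for the strand of both genes was 653-fold brighter, and the other probe was well above background on 7 of 8 arrays. The signals of that other probe were 11.5 to 41.5 scanner units, near the weakest called well above background, so the fold is a rough size. Whether the probe lies in an exon could not be read from the tables used here.

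Among pairs that failed membership, 2 that were located by the same promoter matches, with the same limit, show the one-sided case. At chr11:70654758-70654817, inside the spans of both Pfn1 (profilin 1, an actin-binding protein, minus strand) and Eno3 (the muscle enolase, plus strand), the plus-strand probe CUST_OEV3_071487 read 2.19 ± 0.19 in knockout and 2.20 ± 0.17 in wild-type skin (SD, n = 4 each). Its minus-strand partners CUST_OEV3_071486 and CUST_OEV3_041775 were well above background on 0 arrays. In Mrpl47, a mitochondrial ribosomal protein gene on the minus strand of chromosome 3, the gene-strand probe CUST_OEV3_061182 was well above background on 6 arrays and the opposite probe CUST_OEV3_061183 on 0. The signals were 6.89 to 28.0 scanner units for CUST_OEV3_061182 and 3.08 to 8.57 for CUST_OEV3_061183. Both lie near the weakest signals called well above background, so this case is a weak example.

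At the extremes, CUST_OEV3_066769 read 9.84, 9.78, 10.01 and 9.48 in knockout and 10.18, 10.04, 10 and 9.96 in wild-type skin. CUST_OEV3_065874, on the other strand, read -0.63, -0.80, -0.40 and -0.10, then 0.53, -0.05, -0.12 and 0.17. The mean gap of 10.09 (1086-fold) was the widest of the 295 pairs. The bright probe A_55_P2736734 read 10.23 ± 0.30 in knockout and 10.51 ± 0.12 in wild-type skin, and its partner CUST_OEV3_091348 read 3.36 ± 0.31 and 3.72 ± 0.40 (SD, n = 4 each). The signals of that pair differed 114-fold. Neither pair was located, and by their sequence CUST_OEV3_066769 and A_55_P2736734 may read ribosomal RNA, which is encoded in many copies; no file used here could check this, so neither gap is known to compare the strands of a single site.

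In a few pairs the signals of both strands were close. The smallest gaps among pairs on all 8 arrays were 0.05 for CUST_OEV3_012308 and CUST_OEV3_055042, 0.06 for CUST_OEV3_042336 and A_52_P135873, 0.12 for CUST_OEV3_015753 and CUST_OEV3_041046 and 0.32 for CUST_OEV3_005983 and CUST_OEV3_022006. CUST_OEV3_042336 read 2.33 ± 0.12 in knockout and 2.35 ± 0.21 in wild-type skin, and A_52_P135873 read 2.29 ± 0.27 and 2.27 ± 0.30 (SD, n = 4 each). Which probe was brighter changed from array to array in the first 3 of these pairs, whereas CUST_OEV3_005983 was the brighter on all 8 arrays. The match of CUST_OEV3_005983 and CUST_OEV3_022006 broke off inside both probes, so a single site is not shown for them. CUST_OEV3_015753 matched promoters of 2 genes and CUST_OEV3_041046 of 3, so that pair does not stand for a single locus. Both strands were high for A_55_P2007699, at 6.85 ± 0.15 and 6.98 ± 0.15, and A_55_P1956063, at 5.42 ± 0.20 and 5.60 ± 0.16. A_55_P2007699 matched promoters of 12 genes and does not stand for a single locus.

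Across arrays the strands of a pair followed each other less closely than the probes of same-strand pairs did. As a description, over the 55 non-repeat pairs with both probes on all 8 arrays and mean levels above -2, the median correlation of the strands across the 8 arrays was 0.23 (quartiles -0.12 and 0.69), and 5 (9.09%) exceeded 0.8. Over 568 same-strand pairs chosen in the same way the median was 0.95, and 464 (81.7%) exceeded 0.8. Leaving out 1 array at a time moved the first median between 0.16 and 0.38, the highest without knockout replicate 3. All pairs share the 8 arrays and their scaling, and no such correlation was taken for unrelated probes.

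The strands of the TG and CA repeat were far apart in every combination. The 29 TG probes had mean levels of 8.21 to 9.79, with even the weakest above 99.9% of kept probes, while the 11 CA probes lay between 0.56 and 3.85. Over the 174 repeat pairs the median gap was 5.92 (60.7-fold), and the TG or otherwise brighter probe was the higher on all 8 arrays in every pair. The widest repeat gaps were 8.81 for A_55_P1953361 over A_55_P2066553 and 8.71 for both A_55_P2066792 and A_55_P2048650 over A_55_P1982747. The median TG level was 8.93, 9.16, 8.77 and 8.53 on the knockout arrays and 9.68, 9.35, 9.44 and 8.67 on the wild-type arrays. The median CA level was 2.51, 2.28, 3.50 and 2.99, then 2.62, 2.53, 2.47 and 2.97. Knockout replicates 3 and 4 and wild-type replicate 4 had the lowest TG medians and the highest CA medians.

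That opposition held probe by probe: those 3 arrays, picked out after the values were seen, were the highest for 11 of 11 CA probes and the lowest for 24 of 29 TG probes. The distance between the TG and CA medians was 5.27 to 5.69 on them and 6.42 to 7.06 on the other 5. The share of probes well above background on those 3 arrays was 42.8%, 47.0% and 41.4%, within the range of the others for 2 of them and above it for knockout replicate 4, and its part in the result was not tested. As a description, the correlation of the 2 strands across arrays was below 0 in all 174 repeat pairs (median -0.60), against a median of 0.99 for 352 same-strand repeat pairs. The same 3 arrays were also the lowest for CUST_OEV3_055077 and CUST_OEV3_066447, the exact complements whose bright strand is rich in TG.

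Within each repeat strand the level followed the place of the run in the probe. The 3 CA probes whose run began within the first 10 bases read 3.61 to 3.85, the 4 with the run in the middle 2.48 to 3.37, and the 4 whose run reached base 58 or beyond 0.56 to 1.88. For TG the 9 probes with an early run read 9.32 to 9.79, the 7 in between 8.78 to 9.43 and the 13 with a late run 8.21 to 9.34, so the TG classes overlapped and the CA classes did not. Run length moved with place among CA probes (27 to 34 bases, longest in the early ones), and its part was not tested. TG probes held 18 to 24 G and CA probes 3 to 9 G, and the part of base composition was not tested.

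Few members passed the test between genotypes, which does not show that the others were alike. Of the 271 member probes, 1 was called higher in knockout skin and 0 lower by limma at an adjusted p of 0.05 over all 64078 probes; of all probes, 1.5% were called higher and 0.0671% lower. At an unadjusted p under 0.05, 6 members were higher and 6 lower (4.43% of members), against 5456 higher and 1273 lower of all probes (10.5%). The genotypes did not overlap for 8 members, 2 higher and 6 lower in knockout. Of all 64078 probes, 3920 were apart and higher and 1078 apart and lower, together 7.8%. The median log2 difference, knockout minus wild type, was -0.06 over the members and 0.02 over all probes.

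The member called was A_55_P1972590. It read 0.82, 0.43, 0.88 and 0.49 in knockout and -0.40, -0.17, -0.27 and -0.25 in wild-type skin, so that every knockout array was above every wild-type array. The difference was 0.92 on the log2 scale (SE 0.16, adjusted p = 0.022 by limma). Its partner A_55_P2075515, which shares 52 bases on the other strand, read -3.57, -3.53, -2.63 and -3.13, then -2.78, -2.86, -3.02 and -3.69, with the genotypes overlapping. The call was lost when knockout replicate 1, knockout replicate 3 or any of the 4 wild-type replicates was left out, where the difference was 0.85 to 0.96 and limma's adjusted p 0.051 to 0.095; over all alternatives it ran from 0.0058 to 0.13.

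Whether the strands shifted against each other between genotypes was tested on the difference within each array, brighter minus dimmer probe. Of the 295 opposite-strand pairs 0 were called by limma with adjustment over all 2225 overlapping pairs, of which 0.225% were called, all 5 of them same-strand; 8 of the 295 (2.71%) had an unadjusted p under 0.05, against 220 of all overlapping pairs (9.89%). After normexp correction 1 was called, that of A_55_P1972590, with an adjusted p of 0.036. The median standard error of this difference was 0.39 over the 295 opposite-strand pairs and 0.11 over the same-strand pairs. Of the 295, 172 pairs combined only 40 repeat probes, so this median and the shares out of 295 are not those of independent sites. The standard error was not summarised for the non-repeat pairs alone. The genotypes did not overlap in 5 opposite-strand pairs, against 8.0% of all overlapping pairs.

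In the pair of A_55_P1972590 the strand difference was 3.87 ± 0.40 in knockout and 2.82 ± 0.45 in wild-type skin. For A_55_P2536112 over A_55_P2192397 it was 3.69 ± 0.74 and 2.60 ± 0.42, with the dimmer strand well above background on 2 knockout and 3 wild-type arrays. It was smaller in knockout for CUST_OEV3_083609 over CUST_OEV3_083608 (0.33 ± 0.47 against 1.15 ± 0.24), CUST_OEV3_064542 over CUST_OEV3_029335 (0.46 ± 0.24 against 1.05 ± 0.31) and A_55_P2724619 over A_51_P118650 (0.61 ± 0.09 against 0.91 ± 0.17; SD, n = 4 for each). None of these 5 passed the test, with limma adjusted p-values of 0.24 to 0.40. For CUST_OEV3_083609 over CUST_OEV3_083608, not well above background on all 8 arrays, the shift of -0.82 became -0.23 with signals floored at 16. Under normexp it became -0.14. The match of that pair broke off inside both probes, so a single site is not shown. Normexp also took the shift from 1.09 to 0.45 for A_55_P2536112 over A_55_P2192397 and from -0.59 to -0.18 for CUST_OEV3_064542 over CUST_OEV3_029335.

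A different pattern, both strands lower in knockout skin, was seen in A_55_P2137121 and A_55_P2100194, a pair singled out after its values were seen. A_55_P2137121 read -2.42, -2.03, -2.47 and -2.21 in knockout and -1.74, -1.92, -1.27 and -1.34 in wild-type skin. A_55_P2100194 read -6.66, -4.91, -6.59 and -4.73, then -4.01, -4.27, -3.34 and -3.91. Neither strand's genotypes overlapped, but neither passed the test (adjusted p = 0.13 and 0.10 by limma), and 3 of the 4 knockout values of the weaker strand were not well above background.

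The repeat probes moved together without passing it. All 29 TG probes were lower in mean in knockout, by 0.31 to 0.49 on the log2 scale, and all 11 CA probes were higher, by 0.11 to 0.24. Only knockout replicates 3 and 4, at 3.50 and 2.99, had a CA median above every wild-type array (2.47 to 2.97). Knockout replicates 1 and 2 had CA medians of 2.51 and 2.28. The lowest adjusted p by limma was 0.55 among the TG probes and 0.88 among the CA probes, and the genotypes overlapped in every one of the 40. Since these probes share a sequence, their common direction counts as 1 measurement for each strand.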

How the data were processed

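Per the labels' protocols, Cy3 cRNA was made by linear amplification of skin RNA for single-colour Agilent arrays. Per the submitters' processing notes, Agilent Feature Extraction 10.7.1.1 quantified the scans. The deposited processed signal of a spot, per the file headers, is a linear intensity with background subtracted and no scaling between arrays. The authors' second table holds log2 values made by software that no label names; it served as an alternative.

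Spots of a probe were averaged as log2, without control and outlier spots, and scaled by subtracting each array's 75th percentile, taken over 52652 probes that passed the background flag on all 8. The test between genotypes was that of limma (3.58.1, R 4.3.3; two-sided, Benjamini-Hochberg adjustment), once over all 64078 tested probes and once on the brighter-minus-dimmer difference over all 2225 overlapping pairs. Pairs were found in Python 3.11.15 with NumPy 2.4.6, pandas 2.3.3 and NetworkX 3.6.1. Both limma fits were tested on simulated data, where the probe fit missed most changes of moderate size, which limits what the few calls show. Alternatives changed the scaling, background correction, probe filter, overlap length, variance model and arrays used.

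The members and lists were chosen with earlier results of these data known. Named pairs were those with a called probe, the 4 with the largest strand-ratio difference among pairs whose genotypes did not overlap, the 4 largest and 4 smallest gaps with both probes on all 8 arrays, and the 3 with the most unequal detection. Exact complements, located pairs and others were named after their values were seen. Gene and cell-type lists, and protein sequences, were not used here: no annotation of the probes was given, and matches to promoters named too few. Replicate numbers did not pair the arrays: the correlation of their deviations from the group means was -0.09, 0.01, -0.41 and 0.21. Precision is limited by the number of arrays.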

Additional observations from a re-analysis of the deposited data

Results flagged for a closer look

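In 96 sets of 4 arrays (the strand difference and both probes of the named pairs, by genotype), 5 had 1 array far from the other 3 by Dixon's criterion; chance alone sets apart about 1 in 20 such groups. On wild-type replicate 2, A_51_P118650 read -0.51 against 0.08 to 0.16 on the other wild-type arrays. On the same array CUST_OEV3_055042 read -3.86 against -2.94 to -2.82, and the difference between CUST_OEV3_012308 and it was 0.70 against -0.38 to -0.26. On wild-type replicate 4, A_52_P135873 read 1.82 against 2.37 to 2.48, and A_55_P1953361, a TG-repeat probe, lay 8.26 above A_55_P2066553, a CA-repeat probe, against 9.24 to 9.40.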

How the results depend on the processing

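The count of 1 member higher in knockout became 2 with array quality weights (the second was CUST_OEV3_083608) and 0 without a filter on dim probes or with a replicate block, and ran from 0 to 1 with each array left out; the causes were not tested. No member was called lower under any setting run. With the replicate block, which the arrays' deviations do not bear out as a pairing, A_55_P1972590 had an adjusted p of 0.13 by limma, all probes called higher fell from 1.5% to 0.184%, and opposite-strand pairs called remained at 0. Opposite-strand pairs called for a strand shift numbered 1 under normexp and 0 under every other setting. The median gap of 5.33 over all members became 3.00 with 40 or more shared bases and 4.44 with 60. The value at 60 rests on 12 pairs, and with 1 value per linked group it was 3.17. The median over all members became 2.45 without simple repeats and 2.56 with 1 value per linked group, both added after the data were seen. With each array left out the median over all members ran from 5.23 to 5.47. The 295 pairs became 2512 at 20 or more shared bases, 68 at 40, 12 at 60, 121 without simple repeats and 109 linked groups, and 286 to 292 with each array left out. Signal over background limits the dim strands, many of which lie near the weakest signal called well above background.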
